A study of Gallus gallus with 4 samples.

Results

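The cell cycle and mitosis genes described here are gene IDs chosen by how their name in the deposited tables begins. The beginnings taken were those of minichromosome maintenance proteins (MCM), cyclins A, B, D and E (CCN) and cell division cycle proteins (CDC, CDCA). Cyclin-dependent kinases and their inhibitors (CDK, CDKN), centromere proteins (CENP) and kinesins (KIF) were also taken. So were Aurora kinases (AURK), spindle checkpoint proteins (BUB) and topoisomerase TOP2A. Other cyclins lay outside the rule. Of 17934 gene IDs, 64 had such a name, and 60 of them were members because they lay on a placed chromosome with a mean of at least 0.5 FPKM over the 4 libraries. FPKM counts sequenced fragments relative to the length of the transcript and to the size of the library. Of the 4 IDs left out, CDK3 and the unplaced CDK5RAP3 were listed at 0 FPKM in every library and CDK15 had a mean of 0.252 FPKM. CENPJ, with a mean of 0.435 FPKM, was the closest below the limit, and the mitotic kinesin KIF14, with 0.553 FPKM, the closest above it.

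Breast muscle RNA came from female chickens of 7 weeks of Recessive White Rock (WRR), a fast-growing strain, and Xinghua (XH), a slow-growing strain, with high (h) or low (l) body weight. The WRRh birds weighed 1064.0 ± 11.1 g and the WRRl birds 695.0 ± 24.4 g on average, while XHh birds weighed 305.8 ± 23.3 g and XHl birds 207.6 ± 11.1 g. The kind of error behind these ± values is not named. Each library was 1 pool of the RNA of 3 birds, so no condition had a replicate, and the birds of a pool are not replicates of it. The labels name no engineered allele and no treatment of the birds, and each breed had its own supplier, so breed and supplier cannot be told apart.

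A dividing cell first copies its DNA in S phase, when a helicase built on the MCM ring with CDC45 opens the double strand, and then separates the copies in mitosis. Cyclin B with CDK1 drives entry into mitosis, the centromere proteins hold the microtubules to the chromosomes, and the anaphase-promoting complex ends mitosis by marking cyclin B for destruction. Inhibitors such as p21, p27 and p18 keep the cyclin kinases off. Muscle fibres have left the cell cycle for good, so transcripts of division in whole muscle are thought to come from cells such as satellite cells, the stem cells of muscle, and from blood, immune and connective tissue cells.

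The members were 5 S phase genes, 25 mitosis genes and 6 inhibitor genes. A further 15 were G1 cyclins, other kinases of the cyclin-dependent family, or proteins named for such a kinase, as CDK2AP1 and CDK5RAP2 are. The remaining 9 carry a CDC name but work elsewhere. The tables gave no member named MCM2 to MCM7, no TOP2A and no kinesin other than KIF14, and genes without a name in the tables were not analysed here. Of the 60, 58 were above 0 in all 4 libraries and 57 reached the mean of 1 FPKM asked of a gene before testing, all but KIF14, CENPO and CDK18. RefSeq (assembly GRCg7b) had the same symbol on the same chromosome for 54 members and no entry under the symbol for 4, namely CDC2 (the older name of CDK1), CCNB2, AURKA and CENPC1. For CDKN1A and for the shorter of the 2 models named CENPF, RefSeq placed the gene on another chromosome, so what those 2 rows measured is uncertain. Another gene model overlapped 9 members, whose reads could be split or shared, since the strand of the reads is unknown. The affected members were BUB1B, CDC14B, CENPP, CDC73, CDC25A, CENPT, CENPO, CDK2AP1 and CDK5RAP2.

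The sum of FPKM ran from 541794 in XHl to 637679 in WRRl, and 12419 to 12904 genes were above 0 in a library. The libraries differed in depth. By the read totals of the study, XHl was the most deeply sequenced and WRRl the least, with XHh close to WRRl in mapped reads. Read counts per gene were not used here, so the precision of a single value could not be computed. Over genes averaging 1 FPKM or more in a pair, the high-weight birds of XH had a median log2 ratio of −0.25 to those of WRR, and the low-weight birds one of −0.23. It became 0.01 in each when the libraries were scaled by median-of-ratios factors. A difference between the breeds is therefore read beside these medians. In every contrast the library named second was divided by the one named first, on the log2(FPKM + 1) scale, which understates changes of weakly expressed genes.

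Mitosis genes were highest in the WRR birds of low weight. Of the 25 mitosis members, 20 had their highest level in WRRl, 2 in WRRh, 2 in XHh and 1 in XHl. Of all 11438 genes on placed chromosomes that reached a mean of 0.5 FPKM, 43.8% were highest in WRRl. The share was 53.5% among genes with a mean of 0.5 to 10 FPKM, where 18 of the mitosis members lay, 15 of them highest in WRRl. Of the 20, CENPK and KIF14 would fall below the 0.5 FPKM limit without their WRRl value, so they add nothing to these counts. Scaled by median-of-ratios factors, 15 of 25 mitosis members were highest in WRRl. This stood beside 32% of all genes and 42.9% of genes of 0.5 to 10 FPKM. After quantile normalization 12 of 25 were, beside 25.7% and 27.6%. With 1 library per condition these counts are descriptions of 4 pools, and in bulk RNA fewer cells of a type and less RNA per cell cannot be told apart.

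**Figure D1:**
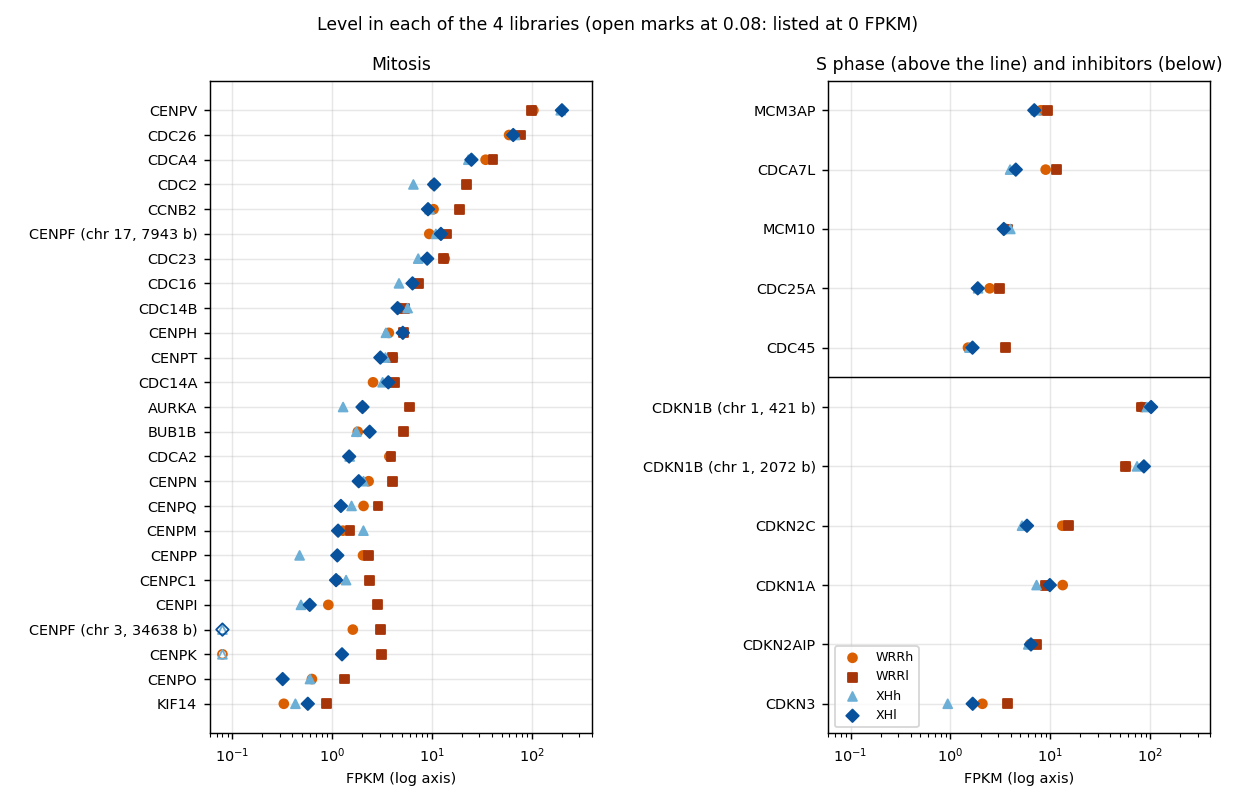
FPKM (x axis, logarithmic) of each mitosis member (left) and of each S phase and inhibitor member (right) in the 4 libraries, 1 mark per library, with open marks placed at 0.08 for values listed at 0. The WRRl squares lie at the right end of the row for 20 of 25 mitosis members, and the XH marks of CENPV lie to the right of the WRR marks.

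The peak in WRRl was also seen in markers of immune cells. In WRRh vs. WRRl their median log2 ratio was 1.11 for macrophage, 0.84 for T cell and 0.91 for B cell markers. The mitosis members had 0.39 there, and the further mitosis and S phase genes described below had 0.54 and 0.25. The values below keep that order. In XHh vs. XHl the markers had 0.46, 0.26 and 0.02, beside 0.04, 0.21 and 0.11. The marker medians took every matched model, without the limit on low or 0 values used for the gene groups. The B cell medians in contrasts with an XH library therefore include both CD72 models, whose listed 0 can be a failed estimate. In WRRl vs. XHl they had −2.17, −1.55 and −2.36, beside −0.66, −0.62 and −0.68. In WRRh vs. XHh they had −1.24, −1.06 and −1.86, beside −0.12, −0.34 and −0.51. The summed level of 7 of 9 macrophage markers was 241, 574, 104 and 147 FPKM, where WRRh comes first, then WRRl, XHh and XHl, the order used from here on. That of 10 of 11 T cell markers was 100, 198, 26.3 and 46.0 FPKM. The 6 models of B cell markers, 2 of them named CD72, summed to 148, 477, 11.8 and 28.4 FPKM. Most of each sum was IGJ alone, with 131, 443, 7.61 and 24.4 FPKM, so the sum does not stand for the list. Every one of these macrophage, T cell and B cell models was highest in WRRl, and both CD72 models were listed at 0 in both XH libraries. Of 10 satellite cell markers only VCAM1 and SDC4 matched, and they summed to 47.0, 52.4, 27.4 and 38.1 FPKM. MYOD1, also on that list, matched no name here, but the study reported it higher in XH than in WRR in both weight pairs. The 2 matched markers therefore do not stand for the list. Fibroblast markers summed to 1907, 2353, 1160 and 939 FPKM, with 5 of 6 matched highest in WRRl. Erythroid markers summed to 180, 133, 56.5 and 102 FPKM, with 4 of 5 matched highest in WRRh and 1 in XHl. Endothelial markers, with 86.5, 71.4, 75.6 and 74.0 FPKM, adipocyte markers, with 101, 88.5, 90.9 and 90.4 FPKM, and muscle fibre markers, with 21660, 20614, 23973 and 19726 FPKM, were not highest in WRRl. Those sums cover 4 of 8 endothelial, 4 of 6 adipocyte and 6 of 8 muscle fibre markers. The adipocyte sum hides markers that went opposite ways between the breeds. PLIN1 had 14.5, 10.7, 1.30 and 0.583 FPKM, and CIDEA had 2.06, 2.04, 5.42 and 9.19 FPKM. The part of these cell types in the levels of the cell cycle genes was not tested.

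The 4 genes of the cyclin B kinase, Aurora A and the checkpoint had a median log2 ratio of 1.08 in WRRh vs. WRRl. Beside it, the median was 0.05 over all genes and 0.13 over genes of 0.5 to 10 FPKM. The 4 were named after their values were seen. They include CDC2, AURKA and BUB1B, at least 2-fold higher in WRRl, so their median only restates those ratios. CDC2 (ENSGALG00000003085, chromosome 6, 9821485 to 9829491 in the tables), the kinase that drives mitosis, had 10.5 FPKM in WRRh and 22.1 FPKM in WRRl, against 6.54 FPKM in XHh and 10.6 FPKM in XHl. Each low-weight library lay above the high-weight library of its own breed, 2.10-fold in WRR and 1.61-fold in XH, and both lay above both high-weight libraries, although XHl and WRRh were almost level. AURKA (ENSGALG00000007768, chromosome 20, 11983813 to 11989788), the Aurora A kinase of the spindle poles, had 2.02, 6.02, 1.29 and 2.02 FPKM. WRRl was 2.98-fold above WRRh, while WRRh and XHl were almost equal. BUB1B (ENSGALG00000004838, chromosome 5, 524102 to 661415), the checkpoint kinase that delays anaphase until all chromosomes are attached, had 1.82, 5.23, 1.75 and 2.38 FPKM. It too stood out in WRRl with the other libraries close together, but 6 other gene models overlap its long span. CCNB2, a cyclin B partner of CDC2, had 10.4, 18.9, 9.49 and 9.17 FPKM, high in WRRl and nearly level elsewhere.

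The kinetochore and centromere genes form the largest group, with 12 gene models. Of these, 10 were highest in WRRl, and 9 of the 10 models that could be compared were higher in WRRl than in WRRh, with a median log2 ratio of 0.46. Among all genes of 0.5 to 10 FPKM, 53.5% were highest in WRRl and 3493 of 5423 were higher in WRRl than in WRRh. The models highest in WRRl include CENPK and a CENPF model, listed at 0 in part of the libraries. In XHh vs. XHl, 2 of 7 were higher in XHl, with a median of −0.13 beside 0.05 over all genes. The background was 5961 of 10019 genes, and 2736 of 4738 genes of 0.5 to 10 FPKM. CENPI (ENSGALG00000005038, chromosome 4, 2061545 to 2075864), a subunit of the constitutive centromere network, had 0.920, 2.88, 0.489 and 0.599 FPKM. It was 3.14-fold higher in WRRl than in WRRh, on levels near the limit of the table. Below 1 FPKM in WRRh, CENPI was compared there only through its WRRl value, so its direction was fixed. CENPP, of the same network, had 2.05, 2.33, 0.474 and 1.13 FPKM. Both its WRR libraries lay above both XH libraries, as in 51.6% of all genes. CENPC1, which joins the centromeric nucleosome to the outer kinetochore, had 1.12, 2.37, 1.39 and 1.10 FPKM, with the breeds overlapping.

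Some centromere genes were listed at 0 in part of the libraries. The longer of the 2 models named CENPF, on chromosome 3, had 1.62 and 3.04 FPKM in WRRh and WRRl and was listed at 0 in both XH libraries. CENPK, another subunit of the network, had 3.12 FPKM in WRRl and 1.26 in XHl and was listed at 0 in both high-weight libraries. No fold is given for these, since a listed 0 can be a failed estimate. CENPM went another way, with 1.29, 1.52, 2.07 and 1.15 FPKM and its highest value in XHh. CENPT, with 4.07, 4.07, 3.43 and 3.05 FPKM, was level between the WRR libraries.

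The 3 subunits of the anaphase-promoting complex were more even. CDC26, its small stabilising subunit, was the second highest mitosis member with 59.4, 76.9, 68.4 and 65.4 FPKM. CDC16 had 6.54, 7.38, 4.69 and 6.41 FPKM, and CDC23 had 13.5, 13.0, 7.31 and 8.99 FPKM. Low over high weight, their median log2 ratio was 0.15 for WRR and 0.27 for XH. The phosphatases CDC14A and CDC14B, whose relative in yeast takes cells out of mitosis, stayed within 2.58 to 5.73 FPKM over all libraries. CDCA4, a nuclear protein named for its link to cell division, had 34.6, 41.0, 23.2 and 24.9 FPKM. CDCA2, which brings protein phosphatase 1 to chromatin at anaphase, had 3.76, 3.91, 1.51 and 1.49 FPKM. In both, the WRR libraries lay above the XH libraries, as in 51.6% of all genes, and the weight classes of a breed were close. KIF14, a kinesin of cytokinesis, had 0.330, 0.878, 0.431 and 0.573 FPKM.

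Within the breeds, 19 of 22 mitosis members that could be compared were higher in WRRl than in WRRh, with a median log2 ratio of 0.39. This stood beside 6058 of 10700 genes and a median of 0.05. CENPI, among the 19, was compared only through its WRRl value. Among all genes of 0.5 to 10 FPKM the median was 0.13, with 3493 of 5423 higher in WRRl. In XHh vs. XHl, 10 of 19 mitosis members were higher in XHl. The background was 5961 of 10019 genes, and 2736 of 4738 genes of 0.5 to 10 FPKM. The mitosis median was 0.04 beside 0.05 over all genes. This XH median became −0.02 with median-of-ratios factors. The median for WRRh vs. WRRl was 0.35 with those factors and 0.32 after quantile normalization. The log2 ratio of low to high weight was larger in WRR than in XH for 18 of 23 mitosis members, beside 5569 of 10989 genes and 3348 of 5728 genes of 0.5 to 10 FPKM. This difference could not be tested with 1 library per condition.

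By size, 4 of 56 members compared were at least 2-fold higher in WRRl than in WRRh, and none was lower. All 4 were mitosis genes, namely CDC2, AURKA, BUB1B and CENPI. CENPI, below 1 FPKM in WRRh, was compared only through its WRRl value, so its direction was fixed. The background was 3.28% of genes higher and 0.748% lower. In XHh vs. XHl, none of 53 members was 2-fold apart, beside 0.779% of genes higher and 0.539% lower. Limma on all 4 libraries called no member between the weight classes. With its 1 residual degree of freedom, it called 0.0375% of 10669 genes as higher and 0.0187% as lower in the low-weight libraries. The smallest adjusted p of a member was 0.809, and 3 of 57 members, CDC2, AURKA and CENPK, were higher in the low-weight libraries at an unadjusted p under 0.05, beside 4.06% of all genes tested. CENPK was listed at 0 in both high-weight libraries and reached the test only through the low-weight ones, so its p supports nothing. CDC2 was 0.81 ± 0.16 (SE) higher on the log2 scale in the low-weight libraries, with a limma adjusted p of 0.809. Of the 25 mitosis members, 8 had both low-weight libraries above both high-weight libraries, beside 10.6% of all genes, and none had the reverse order. CENPK and KIF14 are among the 8 but reached the limit of 0.5 FPKM only with their WRRl value, so they add nothing to that count. The 8 also include the shorter CENPF model, whose identity is uncertain, and BUB1B, which 6 other gene models overlap.

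**Figure D2:**
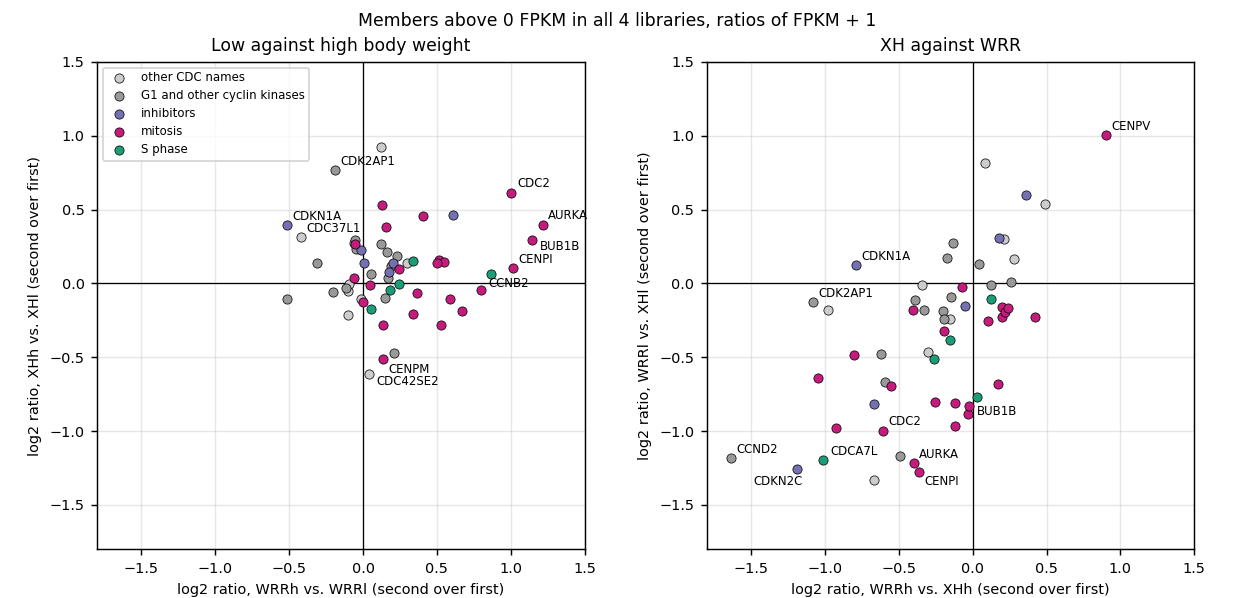
Log2 ratio of FPKM + 1 of each member above 0 in all 4 libraries, coloured by class. On the left the ratio of low to high weight in XH (y axis) is drawn against that in WRR (x axis), and AURKA, BUB1B, CENPI and CDC2 lie beyond 1 on the WRR axis only. On the right the ratio of XH over WRR in the low-weight (y axis) is drawn against that in the high-weight libraries (x axis), with CCND2, CDKN2C and CDCA7L at the lower left and CENPV alone at the upper right.

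Between the breeds, most mitosis members were lower in XH in the low-weight pair, in a number that depended on the scaling. In WRRl vs. XHl, 21 of 22 mitosis members were lower in XHl. This stood beside 68.5% of all genes and 4202 of 5251 genes of 0.5 to 10 FPKM. CENPI there, and CENPP in WRRh vs. XHh, were compared only through their WRR values. The mitosis members had a median log2 ratio of −0.66, beside −0.23 for all genes and −0.41 for genes of 0.5 to 10 FPKM. With median-of-ratios factors the median was −0.45 beside 0.01, and after quantile normalization −0.20 beside 0.06. Of all 25 mitosis members, 18 were lower in XHl than in WRRl with median-of-ratios factors, beside 50.2% of all genes. Among genes of 0.5 to 10 FPKM that share was 64.7%. After quantile normalization 16 of 25 were lower, beside 44.6% and 46.1%. In WRRh vs. XHh, 13 of 20 were lower in XHh, beside 72.2% of all genes and a median of −0.25, with a median of −0.12 that turned to 0.11 with median-of-ratios factors and to 0.24 after quantile normalization. CENPV went against the group. Whether the gap between the breeds differed between the weight classes was not tested.

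CENPV (ENSGALG00000004503, chromosome 19, 6517448 to 6520451), a centromere protein that in human cells also binds microtubules, was the highest mitosis member, with 104, 99.7, 195 and 201 FPKM. Both XH libraries lay above both WRR libraries, as in 14.5% of all genes, and the weight classes of a breed lay close together. It rose by 0.95 ± 0.11 (SE) on the log2 scale in XH, with a limma adjusted p of 0.0483. The adjusted p ran from 0.0199 to 0.227 over the alternatives, and the change from 0.92 to 1.23.

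The S phase members were few and weakly expressed, with means of 2.06 to 7.85 FPKM. CDCA7L (ENSGALG00000010908, chromosome 2, 30586864 to 30607238), a nuclear protein that binds the MYC transcription factor in mammals, had 8.98, 11.6, 3.95 and 4.51 FPKM. Both WRR libraries stood well above both XH libraries, an order seen in 51.6% of all genes. It fell by 1.10 ± 0.15 (SE) on the log2 scale in XH, with a limma adjusted p of 0.0483, a call that several alternatives lost. CDC45, which joins the MCM ring to form the active helicase, had 1.50, 3.55, 1.55 and 1.66 FPKM, high in WRRl alone. CDC25A, the phosphatase that frees cyclin kinases at the start of S phase, had 2.47, 3.11, 1.89 and 1.88 FPKM. MCM10, which helps to start replication forks, was the most even, with 3.57, 3.75, 3.97 and 3.42 FPKM. MCM3AP, named for its binding of MCM3 and known for its part in mRNA export, had 8.05, 9.30, 7.14 and 6.91 FPKM. All but MCM10 were highest in WRRl, so 4 of 5, beside 43.8% of all genes and 53.5% of genes of 0.5 to 10 FPKM. All 5 were higher in WRRl than in WRRh, beside 6058 of 10700 genes, with a median log2 ratio of 0.24 beside 0.05. In XHh vs. XHl the S phase median was −0.01, and in WRRl vs. XHl it was −0.52 (−0.32 with median-of-ratios factors and −0.02 after quantile normalization).

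The inhibitor genes did not move as a block. CDKN2C (ENSGALG00000010537, chromosome 8, 24685461 to 24689552), which codes for the p18 inhibitor of CDK4 and CDK6, had 13.2, 15.3, 5.21 and 5.84 FPKM. The gap between the breeds was far wider than that between the weight classes. It fell by 1.22 ± 0.14 (SE) on the log2 scale in XH, with a limma adjusted p of 0.0483, a call that several alternatives lost. The tables hold 2 models named CDKN1B, the gene of the p27 inhibitor, both on chromosome 1, and they were the most strongly expressed inhibitor models. The model spanning 421 bases had 81.8, 82.2, 92.6 and 102 FPKM, and the model spanning 2072 bases had 57.3, 56.8, 73.9 and 86.5 FPKM. In both, both XH libraries lay above both WRR libraries, as in 14.5% of all genes. The log2 changes were 0.24 ± 0.12 and 0.48 ± 0.13 (SE), with limma adjusted p of 0.238 and 0.0985. The 2 models share a name and may share reads, so they do not count as independent.

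CDKN1A, the gene name of the p21 inhibitor, had 13.3, 9.0, 7.28 and 9.89 FPKM, lower in low-weight birds in WRR and higher in XH. CDKN3, a phosphatase that acts on CDK2, had 2.09, 3.70, 0.938 and 1.67 FPKM and was likewise highest in WRRl and lowest in XHh, as CDC2 was. CDKN2AIP, a partner of the ARF tumour suppressor rather than a kinase inhibitor, had 6.26, 7.22, 6.01 and 6.40 FPKM. Over the 6 inhibitor models the median log2 ratio of XH over WRR was −0.36 for high weight and −0.01 for low weight. With median-of-ratios factors these became −0.15 and 0.23, so the second turned positive. All these medians count both CDKN1B models, CDKN2AIP and the uncertain row named CDKN1A, so they lean on a gene name counted more than once.

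Among the G1 cyclins and other kinases, CCND2 stood apart. CCND2 (ENSGALG00000017283, chromosome 1, 75501155 to 75543215), the cyclin D2 that activates CDK4 and CDK6 in G1, had 13.3, 10.5, 3.61 and 4.06 FPKM. Both WRR libraries stood above both XH libraries, an order seen in 51.6% of all genes. It fell by 1.41 ± 0.18 (SE) on the log2 scale in XH, with a limma adjusted p of 0.0483, a call that several alternatives lost. CDK6, a partner of cyclin D, had 5.59, 6.62, 3.70 and 2.38 FPKM, and CDK14, a kinase of the same family tied to the cell membrane, had 3.25, 3.84, 1.82 and 2.05 FPKM. For both, the WRR libraries lay above the XH libraries, as in 51.6% of all genes, but the limma adjusted p was 0.106 and 0.121. CDK2AP1, a binding partner of CDK2, had 31.0, 27.0, 14.1 and 24.7 FPKM, low in XHh. CDK19, a kinase of the mediator of transcription, had 15.4, 14.2, 16.0 and 15.6 FPKM, and CDC2L1, a kinase tied to splicing, had 20.6, 19.8, 18.1 and 22.5 FPKM. The median log2 ratio of the class between the breeds in the limma fit was −0.23, beside −0.24 over all genes tested.

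The 9 genes of other CDC names included the 2 highest members of all. CDC42, a GTPase of the actin cytoskeleton, had 225, 223, 203 and 188 FPKM. CDC42EP3, an effector of CDC42, had 145, 135, 203 and 196 FPKM, higher in XH but with a limma adjusted p of 0.069. CDC5L, a splicing factor, had 44.8, 41.9, 52.1 and 51.8 FPKM. CDC42SE2, a small effector of CDC42, had 12.3, 12.7, 7.37 and 4.46 FPKM, and the effector CDC42EP4 had 4.08, 4.53, 1.57 and 3.88 FPKM. Of these 9, 3 were highest in WRRl, beside 43.8% of all genes.

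Over all members, limma called 4 between the breeds, CENPV as higher and CDCA7L, CDKN2C and CCND2 as lower in XH. Of all 10669 genes tested, 1.22% were called as higher and 3.53% as lower in XH. At an unadjusted p under 0.05, 3 of the 57 members tested were higher and 15 lower, beside 6.23% and 28.1% of all genes tested, which is close to the background. With median-of-ratios factors the calls were 2 higher and 0 lower, CENPV and CDC42EP3, and CDCA7L, CDKN2C and CCND2 had adjusted p of 0.0665, 0.0564 and 0.0579 with changes of −0.86, −0.97 and −1.17. Quantile normalization and plain moderation called none of the 4. Over the alternatives the adjusted p of CDCA7L ran from 0.0214 to 0.241, that of CDKN2C from 0.0195 to 0.227 and that of CCND2 from 0.0203 to 0.227. Without WRRh limma called 9 members, without WRRl 1, and without XHh or XHl none.

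**Figure D3:**
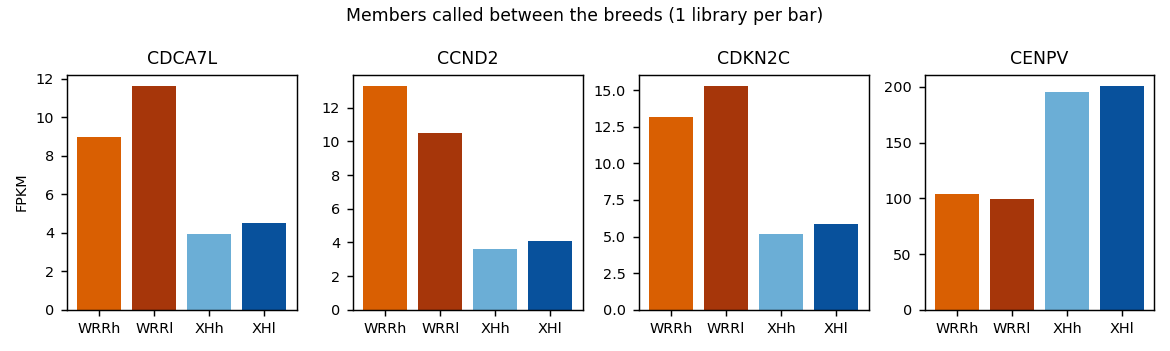
FPKM (y axis, from 0) of the 4 members that limma called between the breeds, with 1 bar per library and no error bars since each condition had 1 library. CDCA7L, CCND2 and CDKN2C are 3.61 to 5.84 FPKM in the XH libraries and 8.98 to 15.3 FPKM in the WRR libraries, and CENPV shows the reverse order with 195 and 201 FPKM in XH.

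By size, 5 of 54 members were at least 2-fold lower in XHh than in WRRh and none higher, where the background was 7.29% lower and 1.93% higher. These were CCND2, CDKN2C, CDK2AP1, CENPP and CDCA7L, of which CENPP was compared only through its WRRh value. Without members that overlap another gene model the count was 3. In WRRl vs. XHl, 7 of 56 members were lower in XHl and CENPV was higher, where the background was 12.3% lower and 1.83% higher. The 7 were CENPI, CDKN2C, AURKA, CDCA7L, CCND2, CDK6 and CDC42SE2, of which CENPI was compared only through its WRRl value. Both WRR libraries lay above both XH libraries for 31 of 60 members, beside 51.6% of all genes, and both XH libraries above both WRR libraries for 9, beside 14.5%. These shares are close to the background.

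Cell cycle genes outside the name rule came from lists of known function, chosen with earlier results of these data known. Of 56 further mitosis genes, 43 matched a name in the tables and 40 reached a mean of 0.5 FPKM. Of these 40, 39 were highest in WRRl, beside 43.8% of all genes and 53.5% of genes of 0.5 to 10 FPKM. With median-of-ratios factors 34 were, beside 32% of all genes and 42.9% of genes of 0.5 to 10 FPKM. After quantile normalization 28 were, beside 25.7% and 27.6%. NCAPG2 and SGOL1 would fall below the limit without their WRRl value. In 17, both low-weight libraries lay above both high-weight libraries, beside 10.6% of all genes. In WRRh vs. WRRl all 40 were higher in WRRl, beside 6058 of 10700 genes, with a median log2 ratio of 0.54. CEP55, SGOL1, SGOL2, MELK and NCAPG2 were below 1 FPKM in WRRh. They reached the mean of 1 FPKM for the pair only through WRRl, so they add nothing to that count. All 40 remained higher with median-of-ratios factors and after quantile normalization, beside 52% and 44.7% of all genes. Among genes of 0.5 to 10 FPKM these shares were 60.1% and 46.3%. In XHh vs. XHl, 26 of 30 were higher in XHl, beside 5961 of 10019 genes, with a median of 0.21 beside 0.05 over all genes. NDC80, among the 26, was compared only through its XHl value. Limma called none of the 36 tested between the breeds or between the weight classes. At an unadjusted p under 0.05, 11 were lower in XH, beside 28.1% of all genes tested, and 7 higher in the low-weight libraries, beside 4.06%.

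STMN1, the microtubule destabiliser stathmin, led that list with 86.0, 125, 65.7 and 74.5 FPKM. TACC3, a spindle protein partnered with Aurora A, had 12.6, 19.7, 9.31 and 10.3 FPKM. ZW10, of the kinetochore checkpoint, had 10.02, 11.3, 8.13 and 9.45 FPKM. SMC4, a subunit of the condensin that compacts chromosomes, had 7.39, 11.7, 5.87 and 7.65 FPKM, so like CDC2 it was highest in WRRl and low in XHh. MYBL2, a transcription factor of late cell cycle genes, had 6.30, 8.61, 7.36 and 5.37 FPKM, and MAD1L1, of the spindle checkpoint, had 5.87, 7.36, 6.93 and 6.99 FPKM. LIN54, which binds promoters of cell cycle genes, was the exception to the peak in WRRl, with 3.56, 4.26, 4.54 and 4.01 FPKM.

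**Figure D4:**
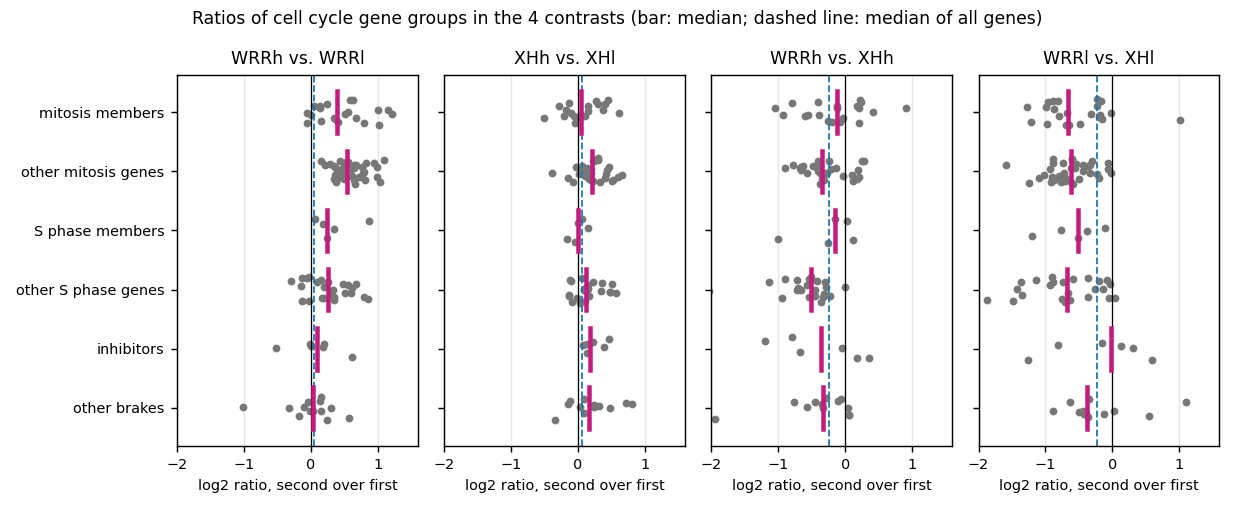
Log2 ratio of FPKM + 1 (x axis) of the members and of the further genes in each of the 4 contrasts, 1 point per gene, with a bar at the median of the group and a dashed line at the median of all genes. In WRRh vs. WRRl all 40 further mitosis genes lie above 0, beside 6058 of 10700 of all genes. In WRRl vs. XHl all 39 lie below 0, beside 68.5% of all genes and 4202 of 5251 genes of 0.5 to 10 FPKM. A gene below 1 FPKM in 1 library of a pair is drawn only through the other library, which fixed its side.

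Of 55 further S phase genes, 28 matched and 27 reached a mean of 0.5 FPKM. Of the 27, 20 were highest in WRRl, beside 43.8% of all genes and 53.5% of genes of 0.5 to 10 FPKM. GINS1, WDHD1 and DTL would fall below the limit without their WRRl value. In WRRh vs. WRRl 18 of 25 were higher in WRRl, with a median log2 ratio of 0.25. WDHD1, among the 18, was compared only through its WRRl value. The background was 6058 of 10700 genes, and 3493 of 5423 genes of 0.5 to 10 FPKM, so the count is close to the latter. In WRRh vs. XHh all 23 compared were lower in XHh, beside 72.2% of all genes, with a median of −0.51. In WRRl vs. XHl 23 of 24 were lower in XHl, with a median of −0.68. This stood beside 68.5% of all genes and 4202 of 5251 genes of 0.5 to 10 FPKM. CHEK1 in both contrasts, and BRCA1 in WRRl vs. XHl, were compared only through their WRR values. With median-of-ratios factors these medians were −0.29 and −0.46. Limma called 2 of the 24 tested as lower in XH, beside 3.53% of all genes tested, none as higher, and none between the weight classes. The 2 called, named here after their values were seen, were E2F1 and RRM2. How these 2 calls held over the alternatives was not examined. The 4 members called between the breeds all lost the call with quantile normalization or plain moderation. E2F1, the transcription factor that opens S phase, had 9.96, 12.9, 1.67 and 2.80 FPKM and fell by 1.95 ± 0.16 (SE) on the log2 scale, with a limma adjusted p of 0.0479. RRM2, the subunit of the reductase that makes DNA building blocks, had 6.98, 12.8, 2.62 and 4.35 FPKM and fell by 1.25 ± 0.16 (SE), with a limma adjusted p of 0.0483.

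The most abundant S phase genes had smaller ratios between the breeds than these 2. PCNA, the sliding clamp of DNA polymerase, had 57.6, 64.9, 40.1 and 42.7 FPKM. RFC2 and RFC4, subunits of the clamp loader, had 37.7, 36.3, 31.9 and 30.0 FPKM and 15.2, 18.3, 9.27 and 10.5 FPKM. RPA3, which covers single strands, had 21.7, 19.6, 15.7 and 16.9 FPKM. In these 4 genes both WRR libraries lay above both XH libraries, as in 51.6% of all genes. TIPIN, of the replication fork, had 16.2, 18.7, 12.7 and 18.0 FPKM, and POLD3, a polymerase subunit, had 16.7, 16.4, 16.6 and 15.4 FPKM.

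Of 36 further genes that hold the cycle back or check it, 15 matched and 13 reached a mean of 0.5 FPKM. Limma called none of the 13 in either comparison. At an unadjusted p under 0.05, 2 of the 13 were lower in XH, beside 28.1% of all genes tested. In the low-weight libraries 1 was higher, beside 4.06%. BTG2, an antiproliferative gene of immediate response, had 171, 135, 177 and 293 FPKM, with its peak in XHl. BTG1, its relative, had 110, 164, 105 and 125 FPKM, with its peak in WRRl. KLF4, a transcription factor that restrains division in epithelia, had 70.9, 34.7, 17.7 and 31.6 FPKM, lower in the low-weight birds in WRR and higher in XH. RBBP4, which binds the retinoblastoma protein, had 48.8, 60.4, 35.5 and 44.1 FPKM. MDM2 and MDM4, which hold p53 down, had 19.8, 21.8, 20.7 and 22.2 FPKM and 21.7, 21.4, 17.6 and 15.8 FPKM.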

How the data were processed

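Breast muscle RNA of 4 pools was sequenced. The authors removed low-quality reads, aligned the rest and deposited FPKM values per gene in 4 tables, each comparing a pair of libraries. The submitters' processing notes name TopHat, without a version, and galGal4. The tables name no build for their positions. Their columns of log2 fold change, p-value, q-value and significance hold the authors' own comparisons and were not used. Where a gene was at 0 for a library in 1 of its 2 tables only, the value above 0 was taken, and no member was affected.

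Ratios used log2(FPKM + 1). A pair of libraries was compared for genes above 0 in both that averaged 1 FPKM or more. Medians of cell type markers took every matched model instead. A gene below 1 FPKM in 1 library of a pair was compared only through the other, which fixed its direction. Contrasts of 2 libraries were given by size, 2-fold or more, with no p-value. Limma 3.58.1 in R 4.3.3 fitted breed and weight class on the 10669 genes that averaged 1 FPKM or more, with trend and robust moderation and Benjamini-Hochberg adjustment over all of them at 0.05. The fit has 1 residual degree of freedom and takes weight classes as replicates of a breed. It was tested on simulated data.

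The members and the gene lists were chosen with earlier results of these data known, and CDC2L1 was put in its class after the tables were seen. Named members are those called by limma, those 2-fold apart in both contrasts of a kind, the 3 highest and the 3 with the largest breed ratio per class, all inhibitors and those next to the limit of the rule. Others named were chosen after their values were seen, and of each further list the 6 highest are named. Alternatives changed the pseudocount, the filters, the scaling, the model, the moderation and the libraries. Overlap with other gene models was an alternative added after seeing the data. Python 3.11.15, pandas 2.3.3, numpy 2.4.6 and matplotlib 3.10.9 were used. One marker gene of the B cell list is not reported here and is not in its sum.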

Additional observations from a re-analysis of the deposited data

Results flagged for a closer look

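Low and high weight differed in opposite directions in the 2 breeds for 25 of the 58 members above 0 in all 4 libraries. The difference between the breeds was not tested, since each condition had 1 library. Of 10989 genes above 0 in all 4 libraries, 45% had opposite directions, so the members are close to the background. The values that follow are the log2 ratio of low to high weight in WRR minus that in XH. Among mitosis members it was 0.85 for CENPC1, 0.84 for CCNB2, 0.81 for CENPO, 0.69 for CENPN, 0.65 for CENPM, 0.55 for CENPQ, 0.43 for CDC26, 0.41 for CDC14B, 0.055 for CDCA2, −0.10 for CENPV and −0.32 for CDC23. Among S phase members it was 0.25 for CDC25A, 0.23 for MCM3AP and 0.22 for MCM10. Among inhibitors it was −0.91 for CDKN1A and −0.23 for the CDKN1B model of 2072 bases. In the class of G1 cyclins and other kinases it was 0.68 for CDK6, 0.25 for CDK12, −0.28 for CDK8, −0.35 for CDC2L1, −0.45 for CCND2 and −0.96 for CDK2AP1. Among other CDC names it was 0.66 for CDC42SE2, −0.33 for CDC40 and −0.73 for CDC37L1.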

How the results depend on the processing

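The 4 members called between the breeds became 0 with a pseudocount of 5, a minimum of 0.5 FPKM, no filter, quantile normalization or plain moderation, 2 with median-of-ratios factors, and 9 when genes at 0 in any library were left out. Leaving out 1 library gave 0 to 9. No alternative called a member between the weight classes. Members 2-fold apart in WRRh vs. WRRl, 4 in all, became 0 with a pseudocount of 5, 1 with a minimum of 5 FPKM, 2 with median-of-ratios factors, 1 after quantile normalization and 10 at 1.5-fold. In XHh vs. XHl, 0 became 1 with a pseudocount of 0.1 or none and 4 at 1.5-fold. In WRRh vs. XHh, 5 became 8 with a pseudocount of 0.1 or none, 1 with 5, 2 with median-of-ratios factors, 1 after quantile normalization, 15 at 1.5-fold and 3 without members that overlap another model, an alternative chosen after seeing the data. In WRRl vs. XHl, 8 became 18 with a pseudocount of 0.1, 19 with none, 0 with 5, 5 with a minimum of 5 FPKM, 1 after quantile normalization and 23 at 1.5-fold.

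Class medians moved as follows with median-of-ratios factors and quantile normalization, in that order. In WRRh vs. XHh they were 0.10 and 0.16 for S phase, 0.11 and 0.24 for mitosis, −0.15 and −0.02 for inhibitors and 0.08 and 0.12 for all members. In WRRl vs. XHl they were −0.32 and −0.02 for S phase, −0.45 and −0.20 for mitosis, 0.23 and 0.29 for inhibitors and 0.01 and 0.02 for all members. In WRRh vs. WRRl quantile normalization gave 0.07 for S phase and 0.03 for all members. A pseudocount of 0.1 gave −0.70 for S phase and −0.85 for mitosis in WRRl vs. XHl. The cause of these shifts was not tested. Log2 changes of named members kept their side of the threshold in 355 combinations of member and alternative between the breeds, lost it in 34 and gained it in 7, and kept it in all 396 between the weight classes. No paired analysis was possible because each condition has 1 library and the labels give no replicate numbers. Without read counts per gene, the counting error of weakly expressed members could not be computed.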
